A study of Mus musculus with 6 samples.

Results

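The B7 and CD28 costimulatory genes were examined in lung RNA-seq of RAG1-/- mice and of RAG1-/- mice that also lacked a copy of Sgo1. The set was chosen by name and holds 10 genes of the 25860 in the table. The 6 ligands are Cd80, Cd86, Cd274, Pdcd1lg2, Icosl and Cd276, and the 4 receptors are Cd28, Ctla4, Pdcd1 and Cd40. All 10 were listed, and 8 of them had 10 reads or more in all 6 libraries together and entered the comparison across 17231 genes. The other two, Ctla4 and Pdcd1, are described by their reads only. Each group was 3 mice with 1 library each, RAG1-/- as replicates 1 to 3 and RAG1-/-Sgo1-/+ as replicates 4 to 6. All 6 mice were 12 months old, were on a C57BL/6 background, had received no treatment and carried the Rag1 deletion, so by genotype no group had an adaptive immune system. Sgo1, which protects the cohesion of sister chromatids at the centromere, was disrupted in the germline, so every cell type of a RAG1-/-Sgo1-/+ mouse is heterozygous. The RNA came from whole pieces of normal-looking lung, in which fewer cells of a type and less RNA per cell cannot be told apart. The P-values measure the spread between these mice.

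T-cell activation needs a second signal beside the antigen receptor. CD80 and CD86 on antigen-presenting cells give it through CD28, and CTLA-4 binds the same ligands and opposes it. PD-L1 (Cd274) and PD-L2 (Pdcd1lg2) restrain T cells through PD-1 (Pdcd1), ICOS ligand (Icosl) supports them through ICOS, and B7-H3 (Cd276) has no settled receptor. CD40 belongs to the TNF receptor family and, when engaged by CD40 ligand, raises the B7 ligands on antigen-presenting cells. In the lung the ligands are known from dendritic cells, macrophages and, for PD-L1 and B7-H3, epithelium and endothelium, whereas CD28, CTLA-4 and PD-1 are known mainly from T cells, which RAG1-/- mice should lack.

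The shared ligand site of the receptor pair can be read in their transcripts. CD28 and CTLA-4 both contact CD80 and CD86 through a proline-rich loop, whose 18 coding bases are in capitals below. They are bases 462 to 491 of transcript Cd28-201 and bases 540 to 569 of Ctla4-201 in GENCODE M21, both genes lying on chromosome 1. Of the 18 loop bases, 16 are identical.
Cd28: gagttcATGTACCCTCCGCCTTACctagac
Ctla4: gaactcATGTACCCACCGCCATACtttgtg
No protein-coding gene lies between Cd28 and Ctla4 in the annotation, and none lies between Cd274 and Pdcd1lg2 on chromosome 19.

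The libraries held 3205822 to 9366774 reads on genes. CPM, the count per 1000000 reads of that total, is 0.320 to 0.936 for 3 reads, which were taken as the limit of detection. The reads of the targeted genes could not separate the genotypes. Sgo1 had 6, 2 and 4 reads in the RAG1-/- libraries against 6, 0 and 2 in the RAG1-/-Sgo1-/+ libraries (log2 fold change 0.10, SE 1.09, adjusted P=0.993). Rag1 had between 8 and 24 reads in every library (log2 fold change -0.15, SE 0.504, adjusted P=0.976). Some libraries stood apart. RAG1-/- replicate 2 held reads of lymphocyte genes that its genotype should not make, with 1853 reads of Igkc, the kappa light chain constant region, against 0 to 8 in each other library, and 78 of Ms4a1, the gene for CD20 of B cells, against 0. RAG1-/-Sgo1-/+ replicate 6 held 737 reads of Arg1 and 1905 of Mmp12, genes of macrophages, against at most 20 and 70 elsewhere. Replicates 4 and 6 held 114 and 101 reads of H2-K1, an MHC class I gene, against 1092 to 2377 elsewhere. Replicate 1 was the only library with abundant Xist, 7717 reads against 4 to 8, so the sexes were not balanced between the groups. The log2 fold change of a member is therefore also given without replicate 2 or 6 where these decide its value. Genes of the other lists are given with all 6 libraries.

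CPM scaled by length gave the order of the members in these lungs. As the mean over 6 libraries of CPM per kb of the longest coding transcript, Cd274 had the highest level at 10.3 (range 6.75 to 20.2), followed by Icosl at 7.88 (5.39 to 10.9), Cd86 at 4.61 (2.61 to 7.08), Cd40 at 3.95 (3.13 to 5.41) and Cd276 at 2.86 (2.02 to 4.85). The rest were below 1, with Pdcd1lg2 at 0.941 (0 to 3.61), Cd80 at 0.876 (0.255 to 2.16), Cd28 at 0.472 (0.295 to 0.837), Pdcd1 at 0.133 (0 to 0.323) and Ctla4 at 0.0697 (0 to 0.209). The ranges of every pair of neighbours in this order overlapped. Within a library the order was steadier for some pairs, since Icosl was above Cd86, Cd276 above Pdcd1lg2, and Cd28 above Pdcd1 in 6 of 6 libraries, whereas Cd86 was above Cd40, and Pdcd1lg2 above Cd80, in only 3. On this scale the lowest value of Cd274, 6.75, lay above the highest of its receptor Pdcd1, 0.323.

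**Figure D1:**
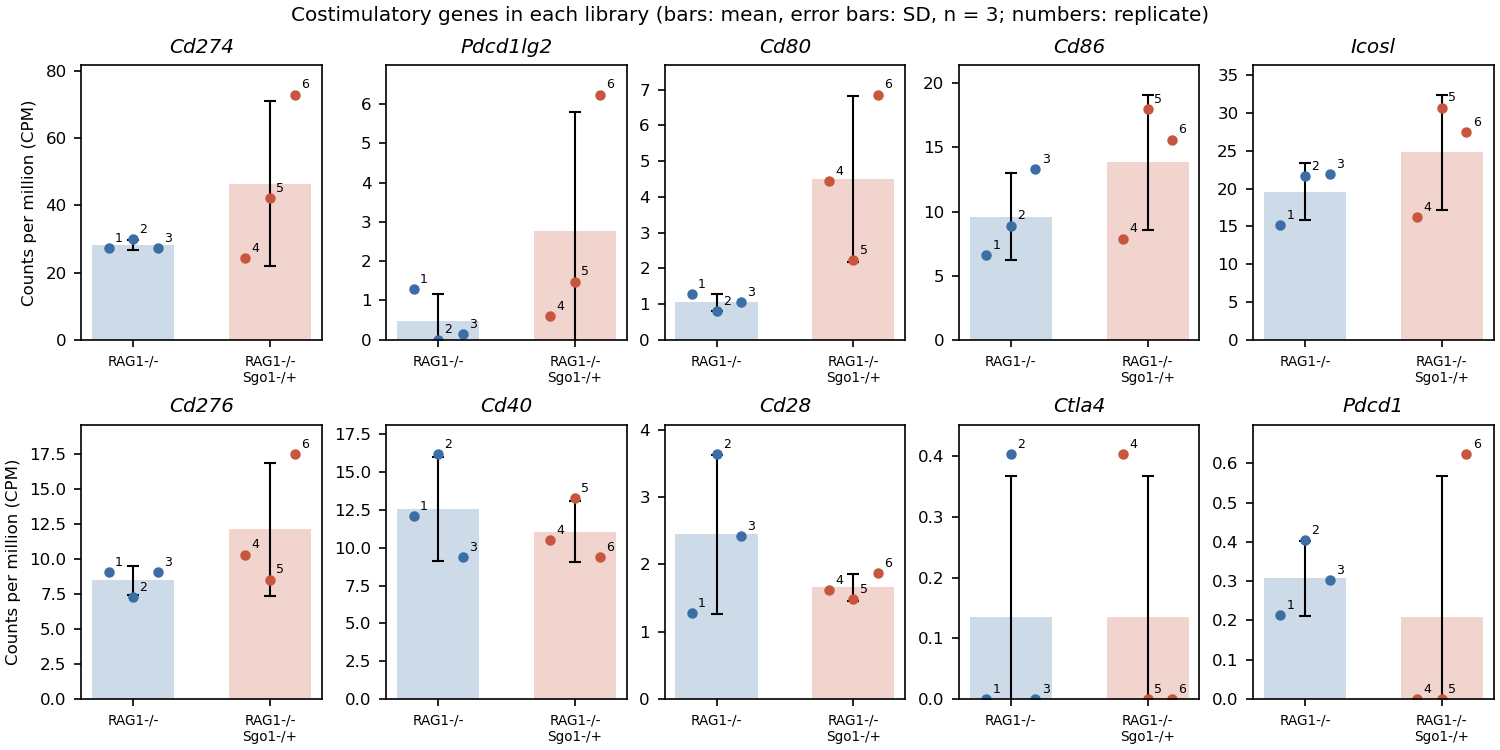
CPM of the 10 genes (vertical axes, each with its own scale) in each library, with the group mean as a bar and the SD as an error bar that is drawn down to 0 at most. Cd80 is the panel in which the groups do not overlap (0.808 to 1.28 against 2.22 to 6.86 CPM), and replicate 6 is the highest library for Cd274, Pdcd1lg2, Cd80 and Cd276. Pdcd1 is also highest there, but on 2 reads, as many as in each RAG1-/- library and below the limit of detection.

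Cd80 (Entrez Gene ID 12519, chromosome 16) encodes the B7 ligand that antigen-presenting cells induce on activation. It had 12, 4 and 7 reads in the RAG1-/- libraries against 22, 12 and 22 in RAG1-/-Sgo1-/+, or 1.28, 0.808 and 1.06 CPM against 4.44, 2.22 and 6.86 CPM. Every RAG1-/-Sgo1-/+ library was above every RAG1-/- library. The means were 1.05 ± 0.237 and 4.51 ± 2.32 CPM (SD, n=3), and the edgeR fit gave a log2 fold change of 2.02 (SE 0.573, 95% interval 0.75 to 3.30), or 4.07-fold higher. The unadjusted P was 0.00544, and with Benjamini-Hochberg adjustment over all genes the edgeR P was 0.832. The exact permutation test on CPM gave P=0.1 (two-sided), the smallest that 3 against 3 libraries allow, or 0.557 after adjustment over 13 such tests.

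With each library left out the direction of Cd80 could not turn, since the groups did not overlap. Its log2 fold change ranged from 1.62 without replicate 6 to 2.37 without replicate 5. With replicates 2 and 6 both removed, a choice made after seeing the data, it was 1.48 (unadjusted P=0.0528, edgeR). Among all 17231 genes, the share with groups that do not overlap was 11.8% (6.24% higher in RAG1-/-Sgo1-/+), and the share at an unadjusted P under 0.05 was 5.66% (3.15% higher and 2.52% lower). At an adjusted P under 0.05 and 2-fold, edgeR called 0 genes (0%), DESeq2 called 1 and limma-voom 0, and Cd80 was not called by any of the 3. Cd80 was past 2-fold and an unadjusted P under 0.05, and failed on the adjustment over all genes. At an unadjusted P under 0.05 the counts were 976 genes in edgeR, 694 in DESeq2 and 837 in limma-voom.

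Cd86 (Entrez Gene ID 12524), the B7 ligand found constitutively on dendritic cells and macrophages, lies on the same chromosome as Cd80. It had 62, 44 and 88 reads in the RAG1-/- libraries against 39, 97 and 50 in RAG1-/-Sgo1-/+, which is 6.62, 8.89 and 13.3 CPM against 7.88, 18 and 15.6 CPM. Replicates 5 and 6 were the highest, replicate 4 lay within the RAG1-/- range, and the groups overlapped. The means were 9.61 ± 3.41 and 13.8 ± 5.28 CPM (SD, n=3), with a log2 fold change of 0.53 (SE 0.357, 95% interval -0.27 to 1.32, adjusted P=0.855, edgeR). The interval of Cd86 holds both no difference and a difference above 2-fold. Its log2 fold change was 0.27 without replicate 5, 0.30 without replicate 1, 0.84 without replicate 3 and 0.82 without replicate 4 (unadjusted P=0.0313, edgeR).

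The share of Cd80 in the reads of the CD28 and CTLA-4 ligands needs no scaling to depth. It was 12 of 74, 4 of 48 and 7 of 95 reads in RAG1-/-, or 16.2%, 8.33% and 7.37%, with exact Clopper-Pearson 95% intervals of 8.67 to 26.6%, 2.32 to 20% and 3.01 to 14.6%. In RAG1-/-Sgo1-/+ it was 22 of 61, 12 of 109 and 22 of 72 reads, or 36.1%, 11.0% and 30.6%, with intervals of 24.2 to 49.4%, 5.82 to 18.4% and 20.2 to 42.5%. These intervals cover counting error only and take each read as independent. They would be too narrow if both reads of a pair were counted, which the many even counts leave possible. Replicates 4 and 6 lay above every RAG1-/- library, and replicate 5, in which Cd86 was highest, lay within them. The mean shares were 10.6 ± 4.85% and 25.9 ± 13.2% (SD, n=3), a difference of 15.2 percentage points that the exact permutation test did not separate (P=0.200, or 0.557 adjusted over 13 tests).

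**Figure D2:**
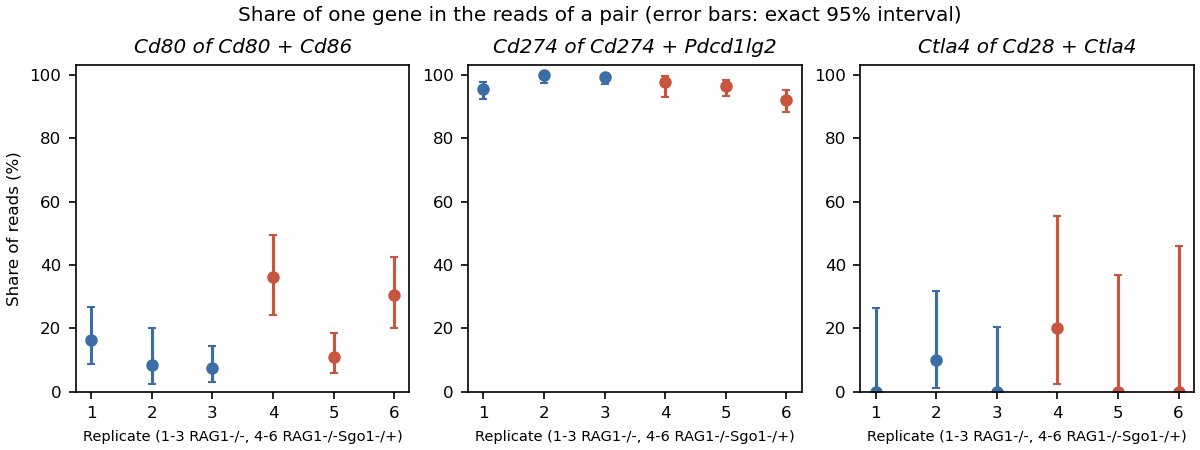
Share (%) of Cd80 in Cd80 and Cd86 reads, of Cd274 in Cd274 and Pdcd1lg2 reads, and of Ctla4 in Cd28 and Ctla4 reads in each library (horizontal axis), with exact 95% intervals as error bars, RAG1-/- in blue and RAG1-/-Sgo1-/+ in red. The share of Cd80 is 36.1% and 30.6% in replicates 4 and 6 and at most 16.2% in the other 4 libraries, whereas the intervals of the Ctla4 share overlap in all 6. The intervals take each read as independent.

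The 250 bases before the start of Cd80 and of both PD-1 ligands are shown because these were the genes with the largest differences in level or, for Cd274, the most reads. They are the RefSeq sequence of build GRCm38.p6 on the + strand, at chr16:38458683-38458932 for Cd80, chr19:29367188-29367437 for Cd274 and chr19:29410669-29410918 for Pdcd1lg2. Capitals mark a match to a motif.
Cd80: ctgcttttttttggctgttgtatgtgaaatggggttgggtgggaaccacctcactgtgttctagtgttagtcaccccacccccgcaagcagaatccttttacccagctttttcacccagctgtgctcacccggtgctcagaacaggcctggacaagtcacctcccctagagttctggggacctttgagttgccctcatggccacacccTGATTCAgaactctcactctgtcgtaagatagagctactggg
Cd274: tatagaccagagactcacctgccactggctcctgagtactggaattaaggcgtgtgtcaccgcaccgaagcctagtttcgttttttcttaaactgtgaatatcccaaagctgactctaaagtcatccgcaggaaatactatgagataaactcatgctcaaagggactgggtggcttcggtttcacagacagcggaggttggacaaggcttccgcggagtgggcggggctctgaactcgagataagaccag
Pdcd1lg2: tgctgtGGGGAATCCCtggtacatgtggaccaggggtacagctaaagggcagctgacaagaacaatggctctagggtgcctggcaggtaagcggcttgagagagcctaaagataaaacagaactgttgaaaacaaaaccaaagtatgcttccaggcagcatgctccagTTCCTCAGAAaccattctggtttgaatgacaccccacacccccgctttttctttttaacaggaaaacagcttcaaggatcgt
Searched on both strands were the gamma-activated site TTCNNNGAA, the STAT6 site TTCNNNNGAA, the interferon-stimulated element GAAANNGAAA, the AP-1 site TGANTCA, the PU.1 core GAGGAA, the TATA box TATAAA and the NF-kappaB consensus. Cd80 had an AP-1 match 42 bases before the start, which 6.75% of 32851 promoters of this length hold. Pdcd1lg2 had a STAT6 match at 82 bases (5.85% of promoters), which overlaps a PU.1 match (23.3%), and an NF-kappaB match at 244 bases (7.25%). Cd274 had no match to these letters in this window. Of the other members in the table, Icosl had an NF-kappaB match, Pdcd1 and Cd276 a PU.1 match and Ctla4 none. The shares for the remaining motifs were 7.02% for the gamma-activated site, 2.98% for the interferon-stimulated element and 12.4% for the TATA box. A match is a run of letters and was not tested as a site. Cd86, Cd28 and Cd40 were not analysed here for motifs.

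Cd274 (Entrez Gene ID 60533), encoding PD-L1, was read at the highest level of the set. It had 256, 148 and 180 reads in the RAG1-/- libraries against 121, 228 and 234 in RAG1-/-Sgo1-/+. On the CPM scale these are 27.3, 29.9 and 27.2 against 24.4, 42.2 and 73.0. The RAG1-/- libraries lay close together, replicate 4 lay below all of them, and replicates 5 and 6 lay above. The means were 28.2 ± 1.51 and 46.6 ± 24.6 CPM (SD, n=3). The edgeR fit gave a log2 fold change of 0.71 (SE 0.313, 95% interval 0.010 to 1.41), or 1.63-fold, with an unadjusted P of 0.0473 and an adjusted P of 0.832. The exact permutation test gave P=0.400 (0.578 adjusted over 13 tests).

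The size of the Cd274 difference depended on which library was left out. The log2 fold change was 0.25 without replicate 6 (unadjusted P=0.295, edgeR) and 1.02 without replicate 4 (unadjusted P=0.00134), and with replicates 2 and 6 both removed it was 0.29. Of the 16 alternatives that refitted the model, 6 gave an unadjusted P under 0.05 for Cd274 and 15 for Cd80. The prior count of 2 left P as in the main fit, and all 16 reused the same libraries, so they are not independent tests. Under TMM normalisation the unadjusted P of Cd274 was 0.0521, with a log2 fold change of 0.68.

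Pdcd1lg2 (Entrez Gene ID 58205), encoding PD-L2, which dendritic cells and macrophages make when alternatively activated, had 12, 0 and 1 reads in the RAG1-/- libraries against 3, 8 and 20 in RAG1-/-Sgo1-/+. Its CPM were 1.28, 0 and 0.151 against 0.606, 1.48 and 6.24. Replicate 6 was far above the rest, replicate 1 lay between the RAG1-/-Sgo1-/+ libraries, and the groups overlapped. With means of 0.477 ± 0.700 and 2.78 ± 3.03 CPM (SD, n=3), the log2 fold change was 2.23 (SE 1.13, 95% interval -0.28 to 4.74, adjusted P=0.832, edgeR). It ranged from 0.93 without replicate 6 to 4.60 without replicate 1, and was 0.46 with replicates 2 and 6 both removed. The fitted fold of Pdcd1lg2 was thus as large as that of Cd80 and rested on fewer reads, 44 against 79 over the 6 libraries.

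Nearly all reads of the PD-1 ligands were Cd274 in both groups. Its share was 95.5%, 100% and 99.4% in RAG1-/- against 97.6%, 96.6% and 92.1% in RAG1-/-Sgo1-/+. The lowest share was in replicate 6 and the groups overlapped. The mean difference was -2.88 percentage points (exact permutation P=0.300, two-sided).

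Icosl (Entrez Gene ID 50723, chromosome 10), the ligand of ICOS, had 15.2, 21.6 and 21.9 CPM in RAG1-/- against 16.2, 30.7 and 27.5 CPM in RAG1-/-Sgo1-/+, from 80 to 166 reads per library. Replicates 5 and 6 were above every RAG1-/- library and replicate 4 was not. The means were 19.6 ± 3.83 and 24.8 ± 7.65 CPM (SD, n=3), with a log2 fold change of 0.35 (SE 0.256, 95% interval -0.22 to 0.92, adjusted P=0.859, edgeR). It was 0.15 without replicate 5, 0.18 without replicate 1 and 0.58 without replicate 4 (unadjusted P=0.0230, edgeR). Among the 8 tested members, only the intervals of Icosl and Cd40 stayed below 2-fold in both directions.

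Cd276 (Entrez Gene ID 102657, chromosome 9), encoding B7-H3, had 9.07, 7.27 and 9.08 CPM in RAG1-/- against 10.3, 8.52 and 17.5 CPM in RAG1-/-Sgo1-/+, from 36 to 85 reads per library. Replicates 4 and 6 lay above the RAG1-/- libraries and replicate 5 lay among them. The means were 8.48 ± 1.04 and 12.1 ± 4.74 CPM (SD, n=3), with a log2 fold change of 0.48 (SE 0.304, 95% interval -0.20 to 1.16, adjusted P=0.847, edgeR). Without replicate 6 the log2 fold change of Cd276 was 0.14, and with replicates 2 and 6 both removed it was 0.051.

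**Figure D3:**
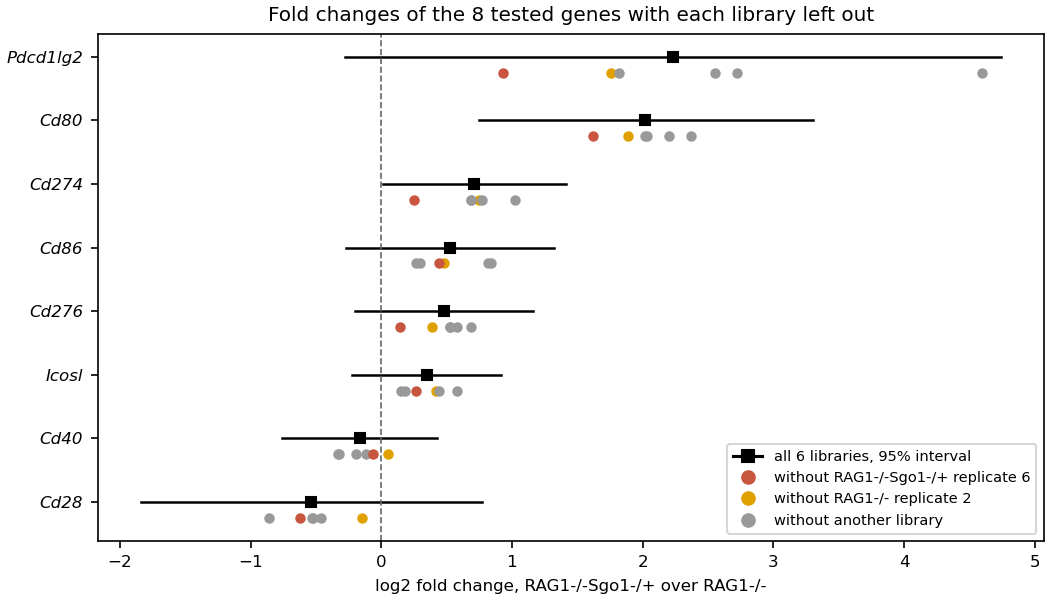
Log2 fold change of RAG1-/-Sgo1-/+ over RAG1-/- (horizontal axis) for the 8 tested genes, with the 95% interval of the edgeR fit as a line and the values with each library left out as points below it. Without replicate 6 (red) Cd274 lies at 0.25 and Pdcd1lg2 at 0.93, while Cd80 lies at 1.62, and without replicate 2 (yellow) Cd40 lies at 0.050.

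Of the receptors, the 3 known mainly from T cells were read at the lowest levels per kb of the set. Cd28 (Entrez Gene ID 12487), the costimulatory receptor of T cells, had 12, 18 and 16 reads in the RAG1-/- libraries against 8, 8 and 6 in RAG1-/-Sgo1-/+, or 1.28, 3.64 and 2.42 CPM against 1.62, 1.48 and 1.87 CPM. Replicate 1 was the lowest library and replicate 2 the highest, so the RAG1-/- libraries spanned the others. The means were 2.45 ± 1.18 and 1.66 ± 0.198 CPM (SD, n=3), with a log2 fold change of -0.54 (SE 0.584, 95% interval -1.84 to 0.77, adjusted P=0.897, edgeR). The Cd28 difference was -0.15 without replicate 2, the library with the immunoglobulin reads, and -0.86 without replicate 1.

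Ctla4 (Entrez Gene ID 12477), the inhibitory receptor for the same ligands, had 2 reads each in replicates 2 and 4 and 0 in the other 4 libraries. Pdcd1 (Entrez Gene ID 18566), encoding PD-1, had 2 reads in each RAG1-/- library, 2 in replicate 6 and 0 in replicates 4 and 5. Both were below 3 reads in every library, so no fold is given, and a count of 0 allows a level of up to 0.320 to 0.936 CPM depending on the library. The share of Ctla4 in the Cd28 and Ctla4 reads was 0%, 10% and 0% in RAG1-/- against 20%, 0% and 0% in RAG1-/-Sgo1-/+ (exact permutation P=1), which at 6 to 20 reads per library is too few to place it. At this depth a difference in either inhibitory receptor was not detectable.

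Cd40 (Entrez Gene ID 21939, chromosome 2), the receptor through which antigen-presenting cells are licensed, had 113, 80 and 62 reads in the RAG1-/- libraries against 52, 72 and 30 in RAG1-/-Sgo1-/+. These are 12.1, 16.2 and 9.38 CPM against 10.5, 13.3 and 9.36 CPM. Replicate 2 was the highest, and the groups overlapped almost fully. The means were 12.5 ± 3.42 and 11.1 ± 2.05 CPM (SD, n=3), with a log2 fold change of -0.16 (SE 0.267, 95% interval -0.76 to 0.43, adjusted P=0.943, edgeR), which turned to 0.050 without replicate 2, to 0.15 without replicates 2 and 6 and to 0.11 when scaled to Ptprc.

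Read as a set, 6 of the 8 tested members had a log2 fold change above 0, where 54.9% of all tested genes did, and the median of the 8 was 0.50 against 0.034 over all 17231. The 6 are the ligands, and the other two are Cd28 and Cd40. At an unadjusted P under 0.05 there were 2 members, Cd80 and Cd274, both higher in RAG1-/-Sgo1-/+, where 3.15% of all genes were, and 1 of 8, Cd80, had groups that did not overlap, where 11.8% of all genes had (6.24% higher). The members share libraries and cell types, so they are not separate observations. The summed level of the 10 genes was 74.3, 89.1 and 84.9 CPM in RAG1-/- against 76.4, 118 and 158 CPM in RAG1-/-Sgo1-/+, so that replicates 5 and 6 exceeded every RAG1-/- library and replicate 4 did not.

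The partners of these genes were taken from lists written by name. Of 13 other members of the B7 and CD28 families and their relatives, 11 were in the table and 9 were tested, and 0 passed an unadjusted P under 0.05 in either direction (median log2 fold change 0.08). Icos, the receptor for Icosl, had 28, 30 and 20 reads in the RAG1-/- libraries against 10, 34 and 6 in the RAG1-/-Sgo1-/+ libraries (log2 fold change -0.18, SE 0.554). Nectin2, a ligand of TIGIT and CD226, had the most reads of the list, 841, 407 and 547 against 462, 419 and 318 (log2 fold change 0.081, SE 0.132). Btla and Vsir, both inhibitory relatives, had log2 fold changes of -0.52 (SE 0.516) and 0.19 (SE 0.178).

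Cd40lg, the ligand of CD40, and Cd70, the ligand of CD27, had 0 reads in all 6 libraries, which allows up to 3 reads in each. Of 14 TNF family costimulators, 10 were tested, 3 of them had a log2 fold change above 0, and 0 passed an unadjusted P under 0.05 (median -0.15). Tnfrsf4, Cd27 and Tnfsf9, 3 genes of this list, had groups that did not overlap, all lower in RAG1-/-Sgo1-/+, as had 5.54% of all genes. Tnfsf9, the ligand of 4-1BB, had 14.0, 13.7 and 14.1 CPM in RAG1-/- against 12.1, 9.82 and 11.9 CPM in the RAG1-/-Sgo1-/+ libraries (log2 fold change -0.31, SE 0.207, adjusted P=0.853).

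Downstream of CD28 and PD-1, 20 of 20 kinases, adaptors and phosphatases were tested, and 0 passed an unadjusted P under 0.05, with 12 above 0 and a median of 0.02. Ppp2ca, the catalytic subunit of the phosphatase PP2A that CTLA-4 engages, had a log2 fold change of 0.019 (95% interval -0.26 to 0.30), and Lck, the T-cell kinase, -0.84 (SE 0.569). Downstream of CD40, 16 of 16 TRAF and NF-kappaB genes were tested and 0 passed, with 13 above 0 and a median of 0.08. Traf6, Nfkb1 and Nfkb2, 3 genes of this list, had groups that did not overlap, all higher, as had 6.24% of all genes. Nfkbia, the inhibitor of NF-kappaB with the most reads in this list, had a log2 fold change of 0.027 (95% interval -0.25 to 0.31).

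Interferon gamma is the best known inducer of PD-L1. Of its 11 pathway genes, 10 were tested and 0 passed an unadjusted P under 0.05, with 6 above 0 and a median of 0.05. Ifng itself had 0, 0 and 4 reads in the RAG1-/- libraries against 0, 2 and 2 in RAG1-/-Sgo1-/+. Irf1 had a log2 fold change of 0.078 (SE 0.128), and Stat3, which had the most reads, of 0.12 (SE 0.131).

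Replicate 6, the highest library for Cd80, Cd274, Pdcd1lg2 and Cd276, was also the highest for some genes of dendritic cells and macrophages. Itgax, the integrin of dendritic cells and alveolar macrophages, had 203 CPM there against 25.5 to 48.5 in the other 5 libraries (log2 fold change 1.62, SE 0.557). Cd68 had 63.0 CPM there against 6.06 to 16.2 (log2 fold change 1.5, SE 0.594), and Arg1 had 230 against 1.41 to 3.70 (5.17, SE 1.57). These genes passed an unadjusted P under 0.05 in edgeR, and the adjusted P was 0.832 for each of them. Some other dendritic cell markers did not peak in replicate 6. Xcr1, Flt3 and Ccr7 had 82, 41 and 54 reads in replicate 5 against 24, 12 and 20 in replicate 6. Replicate 5 held 5398576 reads in total and replicate 6 held 3205822. Fscn1 and Cd24a were, like Itgax, highest in replicate 6 (20.6 and 1291 CPM). Csf1r, the macrophage growth factor receptor, had 234 of 3205822 reads in replicate 6, against 369 of 4949415 in replicate 2 and 839 of 9366774 in replicate 1. Replicate 6 had the fewest reads in total, so its lower count is not a lower level of the same size. Relative to total reads, Csf1r was still lowest in replicate 6, close to replicate 2, unlike Itgax, Cd68 and Arg1. The log2 fold change of Csf1r was 0.10 (SE 0.144). Cd86 and Icosl were highest in replicate 5.

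As whole lists, 12 macrophage and monocyte markers summed to 345 to 383 CPM in RAG1-/- and to 336, 379 and 612 CPM in RAG1-/-Sgo1-/+, with 1 of 12 higher (Cd68) and 1 of 12 lower (Siglecf, -0.85) at an unadjusted P under 0.05. None of the 12 was at 0 in any library. Mrc1, the mannose receptor with the most reads of that list, had a log2 fold change of 0.46 (SE 0.382). The 12 dendritic cell markers summed to 844 to 1193 CPM and to 829, 1279 and 1570 CPM, with 2 of 12 higher (Itgax and Fscn1, 0.69) and 0 lower, and none was at 0. Cd24a, which other lung cells also make, gave most of that sum and had a log2 fold change of 0.26 (SE 0.216). Of 9 markers of type 2 innate lymphoid cells, 7 were tested and 1, Arg1, was higher. The part of these cells in the levels of Cd80, Cd274, Pdcd1lg2 and Cd276 was not tested. Without replicate 6 the log2 fold change of Cd80 was 1.62.

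**Figure D4:**
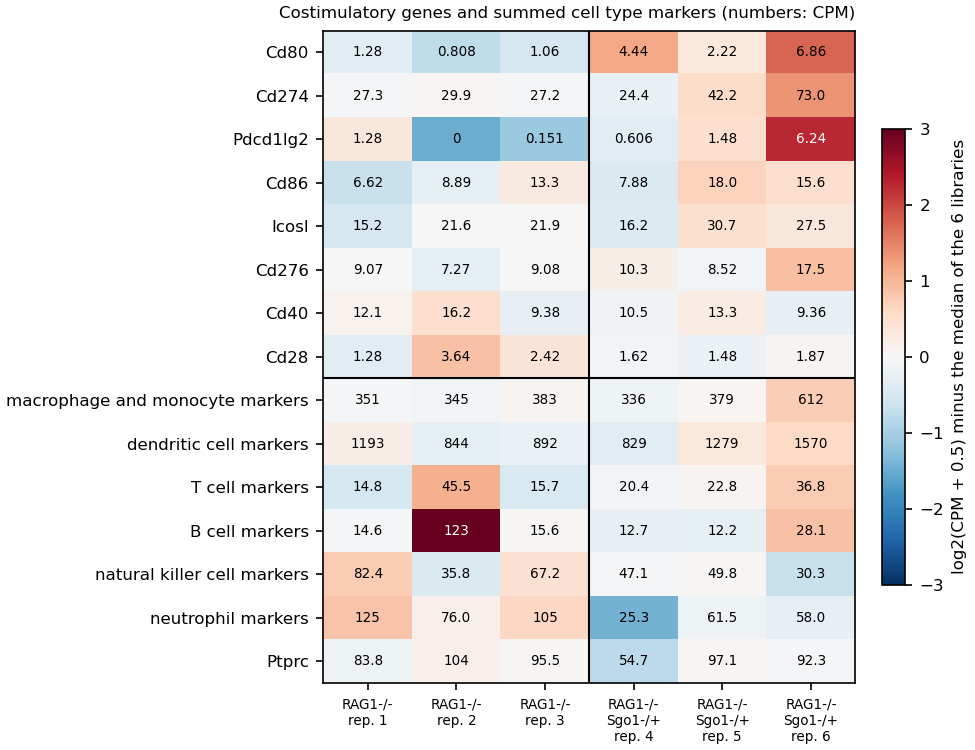
CPM of 8 members and summed CPM of marker lists (rows) in each library (columns), printed in the cells and coloured by log2(CPM + 0.5) minus the median of the 6 libraries. Replicate 6 has the highest values for Cd80, Cd274 and Pdcd1lg2 and for the summed macrophage and dendritic cell markers (612 and 1570 CPM), and replicate 2 for Cd40, Cd28 and T and B cell markers (45.5 and 123 CPM). Of the dendritic cell sum in replicate 6, Cd24a, which other lung cells also make, gives 1291 CPM and Itgax 203 CPM.

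The 10 T cell markers, of which 8 were tested, summed to 14.8, 45.5 and 15.7 CPM in RAG1-/- against 20.4, 22.8 and 36.8 CPM in RAG1-/-Sgo1-/+, and 0 passed an unadjusted P under 0.05. Cd8a had 34 reads in replicate 2, 12 in replicate 6 and 0 elsewhere, and Trat1 was at 0 in all 6. Cd3e had 2, 12 and 0 reads against 0, 9 and 11. Cd247, which natural killer cells also make, had the most reads of the list and a log2 fold change of 0.22 (SE 0.211). Of 10 B cell markers, 9 were tested, and 4 of them, with Ms4a1, Cr2 and Blk among them, were lower in RAG1-/-Sgo1-/+ at an unadjusted P under 0.05. These 3 genes had 78, 39 and 49 reads in replicate 2 and 0 to 4 in every other library. Cd79b had 171 reads there and 24 to 74 elsewhere. The B cell list summed to 14.6, 123 and 15.6 CPM against 12.7, 12.2 and 28.1 CPM, with 0 of its 10 markers at 0 in replicate 2 and 3 to 6 of them at 0 in each other library. Cd40, which B cells carry, and Cd28 were both highest in replicate 2, and the part of these cells in their levels was not tested.

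Ptprc, the gene for the leukocyte antigen CD45, was used to express the members per leukocyte transcript. It had 83.8, 104 and 95.5 CPM in RAG1-/- against 54.7, 97.1 and 92.3 CPM in the RAG1-/-Sgo1-/+ libraries (log2 fold change -0.21, SE 0.204, adjusted P=0.886), and replicate 4 had the lowest level. Per 1000 Ptprc reads, Cd80 had 15.3, 7.80 and 11.1 reads in the RAG1-/- libraries against 81.2, 22.9 and 74.3 in RAG1-/-Sgo1-/+. On the same scale Cd274 had 326, 288 and 285 against 446, 435 and 791. The groups of both genes lay apart on this scale, replicate 4 included.

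Cd86 had 79.0, 85.8 and 139 reads per 1000 Ptprc reads in RAG1-/- against 144, 185 and 169 in RAG1-/-Sgo1-/+, and Icosl had 181, 209 and 230 against 295, 317 and 297. In all, 4 of the 8 tested members, Cd80, Cd274, Cd86 and Icosl, had groups that did not overlap per Ptprc read, each higher in RAG1-/-Sgo1-/+. Of all tested genes, 9.33% did so in this direction and 0.876% in the other. The 4 ratios share a denominator, which was lowest in replicate 4, and Cd274 is also made by cells without Ptprc. Pdcd1lg2, Cd276, Cd40 and Cd28 overlapped on this scale.

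Genes that followed the ligands most closely were sought by the root mean square distance of log2 CPM, centred over the 6 libraries, among genes with at least 5 CPM on average. For Cd274 the nearest of 12759 genes were AI662270 (distance 0.0821), Prr29 (0.107) and Nrros (0.117), a regulator of reactive oxygen species in myeloid cells. Nrros had 26.4, 31.9 and 27.5 CPM in RAG1-/- against 24.6, 41.1 and 59.9 CPM in RAG1-/-Sgo1-/+, lowest in replicate 4 and highest in replicate 6, as Cd274 was. For Cd80 the nearest of 12760 were Clmp, an adhesion molecule (0.355), Gm10499 (0.443) and Slc15a3, a lysosomal peptide transporter (0.452). Clmp had 2.46, 2.63 and 2.88 CPM against 6.67, 6.48 and 10.3 CPM, and reached the mean of 5 CPM only through the RAG1-/-Sgo1-/+ libraries. For Cd86 they were Ssc5d (0.143), Daw1 (0.149) and Adam23 (0.172). Cd80 had the larger distances of the 3 ligands and also the fewest reads. With 6 libraries these distances describe the profiles and are not tests. The genes were chosen for their likeness, so their own differences between the groups add no support to those of the ligands.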

How the data were processed

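Total RNA of normal-looking lung was sequenced on a MiSeq with paired reads of 150 bases, 1 library per mouse, from libraries whose kit does not mark strand. The deposited table holds whole-number counts of reads on 25860 genes, which the authors made with GeneSifter on mouse Build 37.2, without normalisation. The submitters' notes also name BWA and edgeR, without versions. The values of each library stand under 2 headings in the table and were read once. Symbols were matched by Entrez Gene ID for 24048 genes (93.0%). The authors' own list of fold changes and P-values was not used. Of the counts above 0, 63.5 to 69.0% were even, so pairs may have been counted read by read.

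The quasi-likelihood test of edgeR 4.0.16 (R 4.3.3) was run on genes with at least 10 counts in all, using each total count as library size, with Benjamini-Hochberg adjustment over 17231 genes. A gene was called at an adjusted P under 0.05 and 2-fold. The SE is the log2 fold change over the square root of F. Exact permutation tests (two-sided, scipy 1.17.1) were run on the CPM of the 10 genes and on 3 shares, 13 tests in all, with 0.1 as the smallest P. Intervals of shares are exact Clopper-Pearson 95% intervals that take each read as independent. The fit was tested on simulated data. Promoters are from RefSeq on GRCm38.p6 and transcripts from GENCODE M21. Their coordinates were not applied to the counts, which are on the older build.

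Alternatives were TMM, upper quartile and DESeq2 size factors, no filter, filterByExpr, DESeq2 1.42.0, limma-voom (limma 3.58.1), halved counts, a prior count of 2, scaling to Ptprc, pooled shares and each library left out in turn. The members and lists were chosen with earlier results of these data known. Named were the 10 members, Sgo1, Rag1, Ptprc, at most 5 genes per list with an unadjusted P under 0.05, the gene with the most counts of each list, and the 3 nearest profiles to Cd80, Cd86 and Cd274. Igkc, Mmp12, Xist, Icos, Btla, Vsir, Cd40lg, Cd70, Tnfrsf4, Cd27, Traf6, Nfkb1, Nfkb2, Lck, Ifng, Irf1, Cd8a, Cd3e, Trat1, Csf1r, Xcr1, Flt3, Ccr7, Ncr1, Awat1 and H2-K1 were chosen after their values were seen. Some genes of the lists are not reported here by name.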

Additional observations from a re-analysis of the deposited data

How the results depend on the processing

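No paired analysis was possible because the groups share no replicate numbers. Cd80, Cd86, Cd274, Pdcd1lg2, Icosl and Cd276 stayed above 0 and Cd28 below 0 in every alternative that could be run, and no member reached an adjusted P under 0.05. The log2 fold change of Cd40 with each library left out ranged from -0.33 to 0.050, and its sign also turned to 0.15 without replicates 2 and 6 and to 0.11 when scaled to Ptprc. The same removal gave differences of -3.33 to 6.67 percentage points for the Ctla4 share and 10.1 to 22.7 for the Cd80 share. Genes called at an adjusted P under 0.05 and 2-fold numbered 0 to 1 with each library left out and 1 under DESeq2. They were H2-K1 (log2 fold change -3.11, adjusted P=0.00226) without replicate 5 and Awat1, with 65 reads in replicate 6 and 0 elsewhere. H2-K1 had 2377, 1092 and 1510 reads in RAG1-/- against 114, 2107 and 101 in RAG1-/-Sgo1-/+. Its difference thus lay in replicates 4 and 6 and was absent from replicate 5. Genes at an unadjusted P under 0.05 numbered 976, and 571 to 1420 with each library left out, lowest without replicate 3 and 593 without replicate 2. They numbered 611 without replicates 2 and 6. The cause was not tested. Other scalings moved the median of all genes from 0.034 to between 0.0045 and 0.013. Halved counts gave Cd80 1.88. Pdcd1lg2 and Cd28 could not be fitted under filterByExpr, which drops them. At 0 to 22 reads per library, the depth limits Ctla4, Pdcd1, Pdcd1lg2, Cd28 and Cd80.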

Other observations

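Reads of some marker genes of cell types outside the antigen-presenting compartment also differed between libraries. Of 7 neutrophil markers, 6 were tested, and 3 were lower in RAG1-/-Sgo1-/+ at an unadjusted P under 0.05, where 2.52% of all genes were. S100a9 and S100a8, the calprotectin subunits of neutrophils, had log2 fold changes of -1.43 (SE 0.349, adjusted P=0.832, edgeR) and -1.23 (SE 0.404), and Csf3r, the receptor for G-CSF, -0.65 (SE 0.271). S100a9 had 50.3, 32.3 and 48.9 CPM in RAG1-/- and 8.28, 26.3 and 13.7 CPM in RAG1-/-Sgo1-/+, so the groups did not overlap, as was so in this direction for 5.54% of all genes. Ly6g was at 0 in all 6 libraries.

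Of 10 natural killer cell markers, 1 was lower at an unadjusted P under 0.05. This was Gzma, a granzyme, with 26.5, 7.68 and 18.5 CPM against 9.29, 7.04 and 4.37 CPM (log2 fold change -1.34, SE 0.427, adjusted P=0.832, edgeR). Replicate 2 lay within the RAG1-/-Sgo1-/+ range. In this list 2 of 10 markers had a log2 fold change above 0, where 54.9% of all genes did, and the median was -0.55. Groups that did not overlap were seen for 2 of the 10, both lower, as for 5.54% of all genes. Ncr1, the receptor NKp46, had 54, 8 and 29 reads in the RAG1-/- libraries against 12, 26 and 0. Of 8 epithelial and endothelial markers, 1 was higher at an unadjusted P under 0.05, Foxj1 of ciliated cells (log2 fold change 0.58, SE 0.236), and Scgb1a1 of club cells, with the most reads of the list, had a log2 fold change of 0.011 (SE 0.189).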
